A study of Mus musculus with 2 samples.

Results

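The genes of the nuclear envelope linker and the nuclear lamina were examined for binding of the zinc finger protein GATA4, a transcription factor named for the GATA motif it binds, in cultured mouse muscle precursors. A chosen set of 9 of 21887 protein coding genes was described: the nesprin genes Syne1, Syne2 and Syne3, the SUN domain genes Sun1 and Sun2, the lamin genes Lmna, Lmnb1 and Lmnb2, and Emd, which encodes emerin. Their peaks were chosen by position, as every peak of the deposited GATA4 list with a centre in the RefSeq gene span or within 50 kb of it. That rule gave 35 peaks of 17539, and no peak was counted for more than 1 gene. The set of genes was proposed with the peak list already known, so all counts and scores below describe this list and none of them was tested.

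The study made a GATA4 ChIP library and a control IgG ChIP library, each from chromatin of satellite cell-derived skeletal myoblasts grown in medium with serum and basic FGF. Both came from animals of the stock named STOCK Myf5tm1Pas/J, so both groups carry that targeted Myf5 allele. The GATA4 precipitation used a mixture of 3 antibodies. Each precipitation gave 1 library without replicates, and the deposited peak list carries no counts, so read depth is unknown and the IgG signal at these genes was not analysed here. The list holds no expression values, so the cells could not be checked against marker genes.

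Nesprins are spectrin repeat proteins of the outer nuclear membrane. Their carboxy-terminal KASH domain binds SUN proteins of the inner membrane, and SUN proteins in turn contact the lamina, a meshwork of A-type and B-type lamins under that membrane. The resulting bridge, known as the LINC complex, couples the nucleus to the cytoskeleton and positions nuclei in muscle fibres, and human mutations in the genes for lamin A/C and emerin cause Emery-Dreifuss muscular dystrophy. Nesprin-1 and nesprin-2 are giant proteins whose amino-terminal end binds actin, and shorter forms that keep the KASH domain are made from internal start sites.

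Peaks were found at 7 of the 9 genes, and in 6 of them at least 1 peak lay inside the gene. Across all protein coding genes, 56.8% had a peak in the same window and 21.0% had one inside the gene. The window grows with the gene, so the share was also higher among longer genes, at 52.8% for genes under 50 kb, 69.8% for genes of 50 to 200 kb and 72.4% for genes over 200 kb. For a peak inside the gene the shares were 12.5%, 46.3% and 66.3% in the same order of classes. Syne1 and Syne2 belong to the longest of these classes, Syne3 to the middle one and the other 6 genes to the shortest. Syne1 alone held 14 of the 35 peaks, or 40.0%, followed by Lmna with 9, Syne2 and Syne3 with 4 each, Lmnb1 with 2, and Sun1 and Sun2 with 1 each. Lmnb2 and Emd had none.

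**Figure D1:**
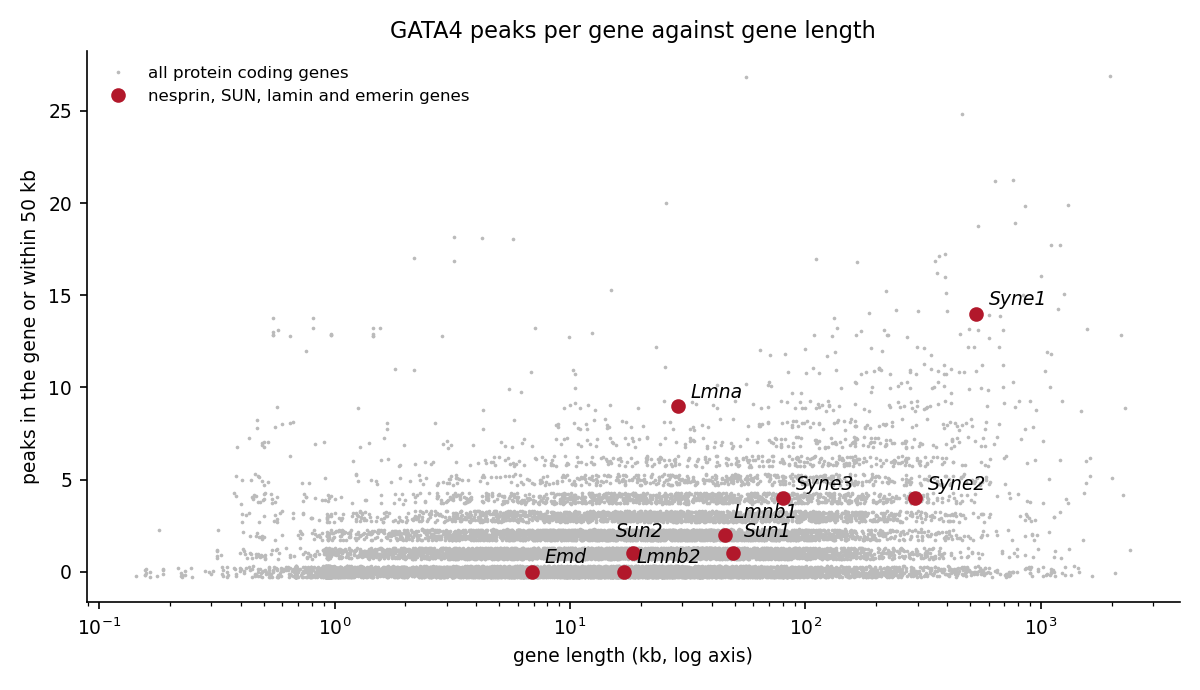
Number of GATA4 peaks with a centre in the gene or within 50 kb (vertical axis) against gene length in kb (log axis) for all 21887 protein coding genes in grey, spread vertically by a small random amount, and for the 9 nuclear envelope genes in red. Syne1 with 14 peaks and Lmna with 9 lie above most genes of their length, while Lmnb2 and Emd lie at 0.

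The promoter sequences show which of the listed start sites these peaks reach, and the list leaves out the upstream ends of the Lmna and Syne3 spans. RefSeq promoter windows of GRCm38.p6 (250 bases before to 50 bases after a start) were at hand for 8 of the 9 genes, 13 windows in all. Only 1 of the 13 overlapped a peak, against 6.10% of 32851 windows of all genes. It belongs to the start of Syne1 that lies nearest the end of the gene and it is shown first, followed by the other pair of Syne1 windows for comparison. The windows of Syne3 and of the more upstream Lmna start are shown because they hold the only GATA site and the only AP-1 site of the set. Both of these windows lie inside their gene span and not at its upstream end. All 5 lie on the minus strand and read 5′ to 3′ along the gene. Capitals mark GATA sites (AGATAA or AGATAG or TGATAA or TGATAG), AP-1 sites (TGANTCA) and TEAD sites (GGAATG), each searched on both strands.
Syne1, internal start inside a peak, chr10:5069014-5069313: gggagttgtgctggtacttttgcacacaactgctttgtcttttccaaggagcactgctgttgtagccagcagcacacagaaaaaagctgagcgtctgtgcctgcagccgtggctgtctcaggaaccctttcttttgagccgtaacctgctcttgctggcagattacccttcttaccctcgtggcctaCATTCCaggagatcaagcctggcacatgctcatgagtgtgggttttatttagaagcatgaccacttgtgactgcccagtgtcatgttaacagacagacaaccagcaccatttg
Syne1, middle start, chr10:5488265-5488564: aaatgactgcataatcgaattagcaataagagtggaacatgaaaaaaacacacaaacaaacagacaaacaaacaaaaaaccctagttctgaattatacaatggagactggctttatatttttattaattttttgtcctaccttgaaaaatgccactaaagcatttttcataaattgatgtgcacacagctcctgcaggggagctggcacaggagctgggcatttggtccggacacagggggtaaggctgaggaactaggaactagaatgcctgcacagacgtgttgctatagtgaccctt
Syne1, first start, chr10:5550643-5550942: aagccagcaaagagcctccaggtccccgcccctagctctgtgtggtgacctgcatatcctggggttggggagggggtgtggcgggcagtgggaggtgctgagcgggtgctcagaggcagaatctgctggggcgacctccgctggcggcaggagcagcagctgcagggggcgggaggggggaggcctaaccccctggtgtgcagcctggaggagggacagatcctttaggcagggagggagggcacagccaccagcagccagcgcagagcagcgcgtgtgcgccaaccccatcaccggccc
Syne3, chr12:104998628-104998927: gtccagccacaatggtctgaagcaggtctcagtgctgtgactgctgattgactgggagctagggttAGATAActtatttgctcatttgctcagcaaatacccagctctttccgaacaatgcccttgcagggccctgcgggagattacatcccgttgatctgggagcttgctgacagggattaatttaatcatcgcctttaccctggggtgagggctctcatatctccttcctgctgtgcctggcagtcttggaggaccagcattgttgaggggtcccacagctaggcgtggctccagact
Lmna, upstream start, chr3:88503303-88503602: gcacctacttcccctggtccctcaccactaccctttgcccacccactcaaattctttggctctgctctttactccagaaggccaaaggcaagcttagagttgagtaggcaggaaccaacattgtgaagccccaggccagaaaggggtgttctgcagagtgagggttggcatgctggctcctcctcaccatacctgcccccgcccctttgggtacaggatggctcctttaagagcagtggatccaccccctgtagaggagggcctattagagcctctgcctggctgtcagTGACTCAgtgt

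The Syne1 window inside the peak held no GATA site. It held 1 TEAD site, read as CATTCC on the gene strand at position -63 counted from 0 at the start, and 4 E-boxes (CANNTG, the motif of MyoD and related factors, which overlaps none of the marked sites here). The Syne3 window held its GATA site, AGATAA, at position -184, and the Lmna window its AP-1 site, TGACTCA, at position 39. Of the 13 windows, 1 held a GATA site, 9 an E-box, 1 an AP-1 site and 2 a TEAD site. In the promoter windows of all genes the shares were 29.8% for the GATA site, 72.3% for the E-box, 7.81% for the AP-1 site and 14.7% for the TEAD site. Of the 729 bp of the Syne1 peak at the internal start, only the 300 bases of the window were searched. The rest of that peak and the sequence of the other peaks were not analysed here, so the motif search says nothing about them.

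Syne1, the gene of nesprin-1, had the most peaks and the highest scores of the set. It lies on the minus strand of chromosome 10, from 5020192 to 5550692 (GRCm38), and is 531 kb long. Of its 14 peaks, 11 were centred inside the gene, or 20.7 per Mb (95% Poisson interval 10.4 to 37.1, for counting error only). Protein coding genes over 200 kb held 6.55 peaks per Mb when pooled, and the 53 of them on chromosome 10 held 10.8 per Mb. Of the 990 genes over 200 kb, 44, or 4.44%, had at least 11 peaks inside, Syne1 among them, and 96, or 9.70%, were at least as dense. Chromosome 10 itself was rich in peaks, with 1635 of the 17539, and 11 of its 53 long genes were at least as dense as Syne1.

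The MACS score, the authors' own value per peak, is used here only to rank peaks within this list, whose median was 99.3. The strongest Syne1 peak, from 5110201 to 5111602, scored 597 and ranked 10 in the list. It was 1402 bp wide and lay 440 kb into the gene in the direction of transcription. Another, from 5055656 to 5057156, scored 398, ranked 104, and lay 494 kb in, towards the exons that encode the KASH end of the protein. The peak from 5548699 to 5549999 scored 233 and was centred 1.34 kb downstream of the first start. The peak from 5085707 to 5086766 scored 197. Of the 11 inside peaks, 9 scored above the list median.

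The inside peaks were unevenly placed along Syne1. Past the peak at the first start came 305 kb, or 57.4% of the gene, without any peak, and the middle start lies in that stretch, 60.4 kb from the edge of the nearest peak. The remaining 10 peaks all lay in the last 224 kb, or 42.3% of the gene, at spacings between 2.02 and 50.5 kb. Around the internal start, at 5069063, the weakest peak of the gene (5068734 to 5069462, score 65.2) covered the whole promoter window printed above. A peak of score 117 lay 2.05 kb before that start, the 197 peak lay 17.2 kb before it, the 597 peak lay 41.8 kb before it, and the 398 peak lay 12.7 kb after it. The peak at the start itself scored higher than only 8.87% of the list.

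The other 5 inside peaks scored between 67.8 and 142. The highest of them, with 142, lay 409 kb into the gene, and the lowest, with 67.8, lay 306 kb in and marked the end of the empty stretch. Beyond the end of Syne1, 3 further peaks scored 86.6, 89.5 and 102, at distances of 26.4, 34.2 and 36.1 kb. These were all inside Esr1, the gene of oestrogen receptor alpha, so distance assigns them to Esr1 rather than to Syne1.

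Syne2, the gene of nesprin-2, had fewer and weaker peaks in a similar order. It lies on the plus strand of chromosome 12, from 75818318 to 76110928, and is 293 kb long. All of its 4 peaks were inside the gene, or 13.7 per Mb (95% Poisson interval 3.72 to 35.0), and 208 of the 990 genes over 200 kb, or 21.0%, were at least as dense. The strongest, from 76102071 to 76103314, scored 171, was 1244 bp wide and lay 8.24 kb before the end of the gene. Another pair, with scores of 110 and 77.9, lay 33.1 and 26.8 kb before the end. The remaining peak, with a score of 71.6, was centred 1.98 kb downstream of the start and 0.672 kb from the neighbouring gene model Gm40447, so it cannot be assigned to Syne2 alone.

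Between the peak near the start and the next one, 258 kb of Syne2, or 88.0% of the gene, held none. Both giant nesprin genes thus had 1 peak within 2 kb of their first start and then a long stretch without peaks. The share of all long genes with a peak that near the first start was not counted, and the Syne2 one cannot be assigned to Syne2 alone. The rest of their inside peaks lay past the midpoint, 10 of 11 in Syne1 and 3 of 4 in Syne2. In 230 genes over 200 kb with at least 4 inside peaks and a listed start, 52.2% of the 1646 peaks lay past the midpoint. The widest gap between neighbouring peaks had a median of 29.2% of gene length among the 56 such genes with exactly 4 peaks, where Syne2 had the widest of all and the next had 68.8%. Among the 34 with 11 or more it had a median of 23.3%, and Syne1 had the widest. Across all 230 genes the median was 28.1%, and 12 of them, Syne1 included, had a gap at least as wide as that of Syne1. This arrangement was noticed in these data and not tested. In Syne2 it rests on a score that 555 peaks of the list share (71.6, at the start) and one that 607 share (110), and without peaks of such widely shared scores 2 remained, both near the end.

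**Figure D2:**
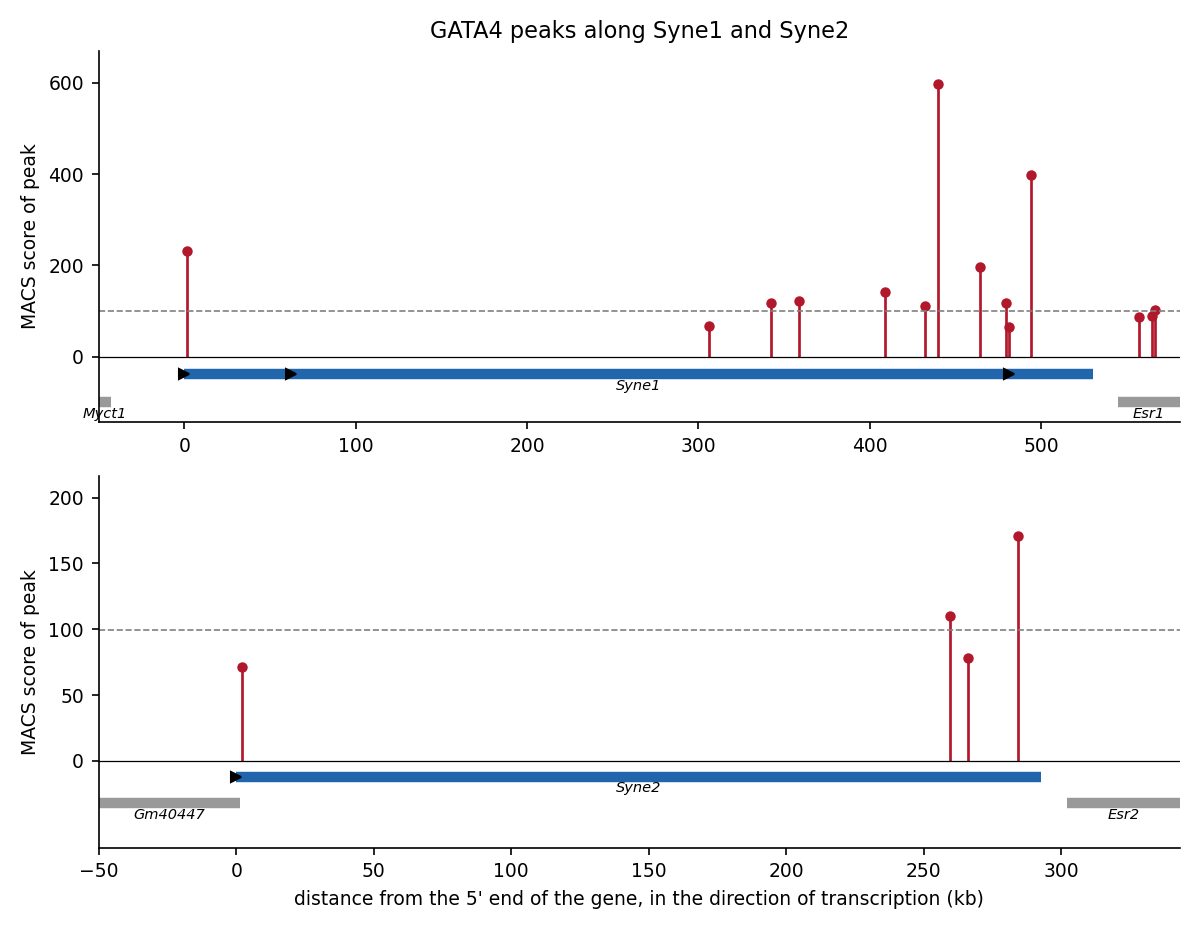
MACS score (vertical axis) of each GATA4 peak against its distance in kb from the first base of Syne1 (top) and Syne2 (bottom) in the direction of transcription. Stems are peaks, blue bars the gene, grey bars other protein coding genes, arrowheads listed start sites and the dashed line the list median of 99.3; after 1 peak near the first start, no peak is seen for 305 kb in Syne1 and 258 kb in Syne2.

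Syne3 encodes nesprin-3, which binds the cytolinker plectin. It lies on the minus strand of chromosome 12, from 104929933 to 105010587, and is 80.7 kb long. Its only listed start, at 104998677, lies inside that span and not at its upstream end. Only 1 of its 4 peaks was inside the gene, with a score of 63.1 that lay near the bottom of the list. That peak lay 5.93 kb downstream of the listed start and 17.8 kb from the upstream end of the span. The highest score, 182, belonged to a peak of only 308 bp at 17.3 kb outside the gene, closer to Glrx5, a mitochondrial glutaredoxin gene 4.77 kb from it. The peak with a score of 71.6 overlapped the promoter window of Glrx5 itself and that of the non-coding gene Snhg10. The last, with a score of 110, lay 21.6 kb from Syne3 on the other side and had no nearer protein coding gene. The 3 outside scores were shared by 175, 555 and 607 peaks of the list, and 17.8% of the 3955 genes of 50 to 200 kb had at least 4 peaks in their window.

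The SUN domain genes, whose products bind the KASH domains, had few and weak peaks. Sun1 lies on the plus strand of chromosome 5, from 139200564 to 139249839, and had 1 peak of score 65.1 inside the gene, 5.24 kb downstream of the more downstream of its 2 listed starts. Sun2 lies on the minus strand of chromosome 15, from 79724068 to 79742536, and had no peak inside. Its 1 peak, with a score of 86.4, lay 40.0 kb away inside Josd1, a deubiquitinase gene. Both scores were below the list median, and 52.8% of the genes under 50 kb had at least 1 peak in their window.

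Lmna, which encodes lamins A and C, had the densest group of peaks among the short genes of the set. It lies on the minus strand of chromosome 3, from 88481148 to 88509932, and is 28.8 kb long. Of its 9 peaks, 4 were inside the gene and 3 more within 10 kb, so that 7 peaks lay within 28.0 kb at spacings between 1.42 and 9.29 kb. Of the 16942 genes under 50 kb, 58, or 0.342%, had at least 9 peaks in their window, and 20, or 0.118%, had at least 7 within 10 kb, Lmna among them in both counts.

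The Lmna peaks were modest in score, and 3 of the 9 exceeded the list median. The highest of the 7 close ones, from 88509454 to 88510751, scored 120, was 1298 bp wide and spanned the upstream boundary of the gene. The RefSeq span begins there, 6.58 kb before the more upstream of the 2 start sites in the promoter table. Downstream of that start, peaks of score 70.9 and 96.8 lay at 1.46 and 2.88 kb. Downstream of the second start, peaks of score 104 and 62.7 lay at 2.12 and 4.50 kb. Upstream of the gene, peaks of score 68.8 and 80.8 lay at 4.28 and 6.89 kb, and their nearest other gene was Mex3a, which encodes an RNA-binding protein.

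The remaining pair of Lmna peaks belonged by distance to other genes. A peak of score 138, the highest in the Lmna window, lay 28.4 kb away inside Sema4a, a semaphorin gene, and a peak of score 71.6 lay 42.9 kb away over the promoter window of Lamtor2, which encodes a subunit of the Ragulator complex. No Lmna promoter window overlapped a peak, and the edges of the nearest peaks were 1.03 and 1.68 kb from the listed starts. These windows do not cover the upstream boundary of the Lmna span, where the peak of score 120 lay.

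**Figure D3:**
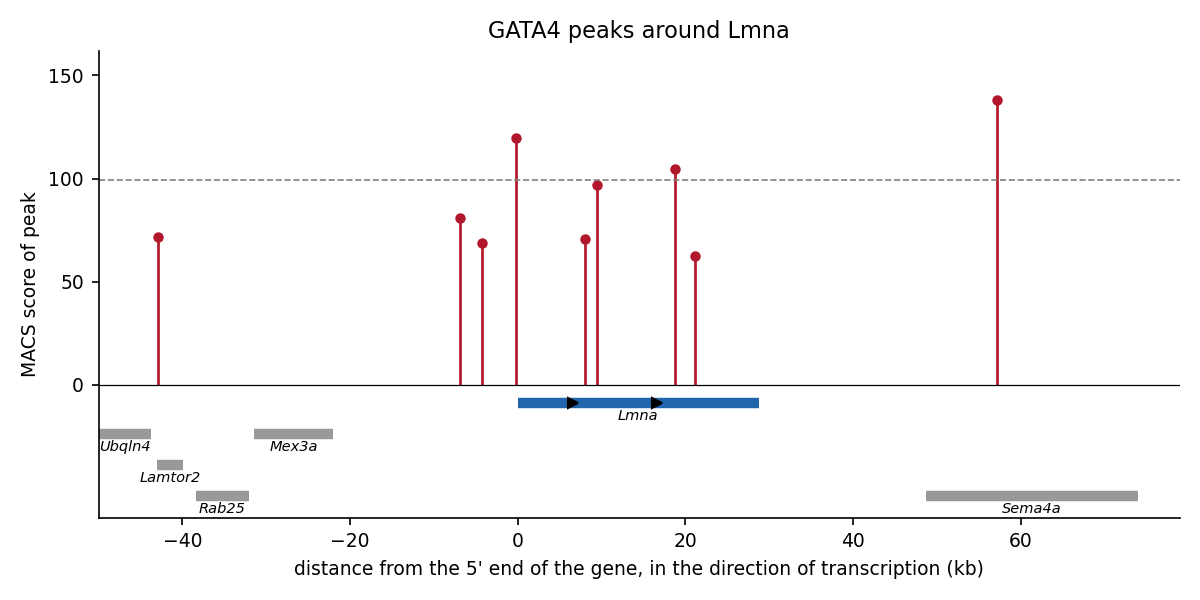
MACS score (vertical axis) of each GATA4 peak against its distance in kb from the first base of the Lmna span in the direction of transcription. Stems are peaks, the blue bar is Lmna, grey bars are other protein coding genes, arrowheads listed start sites and the dashed line the list median of 99.3. A group of 7 peaks, with scores of 62.7 to 120, lies inside the gene or within 10 kb upstream of it.

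The B-type lamin genes had fewer peaks than Lmna. Lmnb1, the gene of lamin B1, lies on chromosome 18, from 56707813 to 56753424, and is 45.6 kb long. Its inside peak, from 56723342 to 56724555, was 1214 bp wide and scored 239, more than 95.0% of the list and more than any Lmna peak. It lay 16.1 kb from the lower-coordinate end of the gene, whose strand was not taken from the tables used here. The second Lmnb1 peak scored 124, was 375 bp wide and lay 37.3 kb away inside Marchf3, a ubiquitin ligase gene, with a score that 487 peaks of the list share. Lmnb2, the gene of lamin B2, lies on chromosome 10, from 80901363 to 80918245, and had no peak in its window although that chromosome holds 1635. Its nearest peak, with a score of 74.1, was 75.1 kb away.

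Emd encodes emerin, a LEM domain protein of the inner nuclear membrane. It lies on the plus strand of chromosome X, from 74254674 to 74261563, and its nearest peak was 164 kb away with a score of 71.2. Chromosome X held 202 peaks in all. With respect to the limit of 50 kb, the peaks just inside it were those at 42.9 kb from Lmna and 40.0 kb from Sun2, and those just outside it were a peak of score 84.1 at 52.1 kb from Lmna and one of score 245 at 57.3 kb from Lmnb1.

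Of the 35 peaks, 9 lay nearer to another protein coding gene or inside it, the only Sun2 peak among them. They are kept in the counts that follow. Set side by side, the 35 peaks had a median score of 104, and 19 of them scored above the list median of 99.3. There were 9 above the upper quartile of the list (138) and 10 below its lower quartile (77.7). Scores over 200 were found in 4 of the 35, 3 of them in Syne1 and 1 in Lmnb1, and in 8.87% of the list. Their median width was 810 bp, against 745 bp in the list. The 7 peaks over 1000 bp scored 120 or more with a median of 233, and the other 28 had a median of 88.0. Among those 28 the order of width was not that of score, since the highest score, 182, belonged to the narrowest peak, of 308 bp. Among the 35, 7 had a score that at least 100 peaks of the list share, and these were 308 to 590 bp wide, narrower than each of the other 28. They belonged to Syne2, Syne3, Lmna and Lmnb1, while all 14 Syne1 scores were less widely shared. In the list 25.1% of peaks had such a score, with a median width of 494 bp, against 800 bp for the others.

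**Figure D4:**
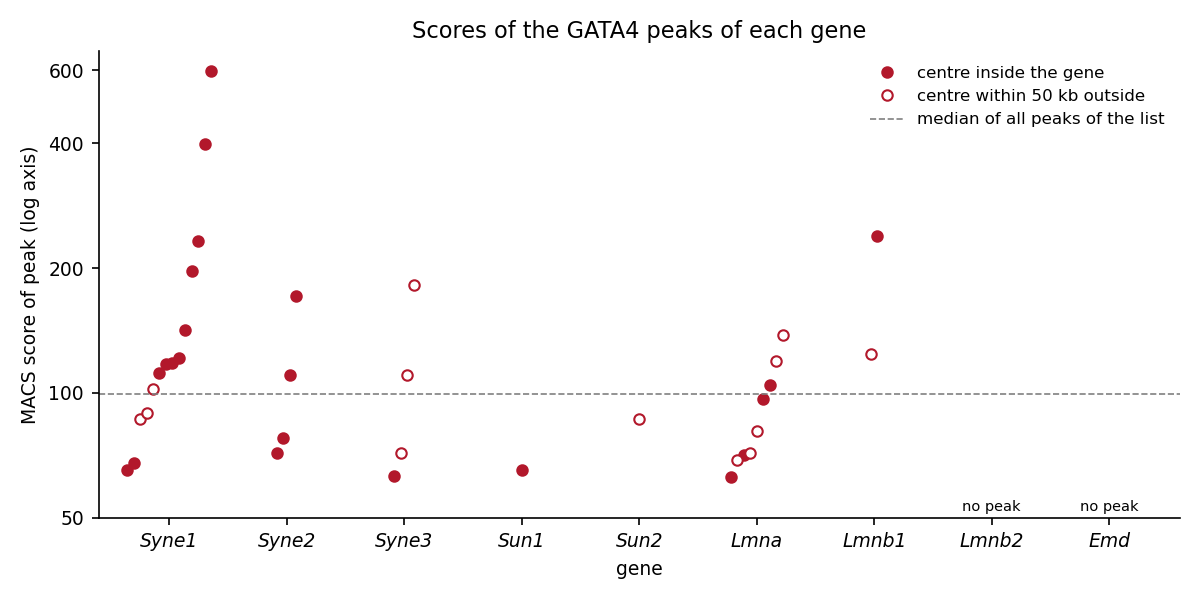
MACS score (vertical log axis) of every GATA4 peak of the 9 genes, with filled points for peaks centred inside the gene, open points for those within 50 kb outside it, and the list median of 99.3 as a dashed line. Points are spread sideways in order of score; the scores over 200 are 3 in Syne1 and 1 in Lmnb1, and Lmnb2 and Emd have no peak.

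Other genes of the nuclear envelope and genes of cytoskeletal partners were examined as 2 lists. Both lists had a peak in the window at 80.0% of their genes, against 56.8% of all protein coding genes. The first list holds 30 genes of further KASH and SUN domain proteins, inner membrane proteins, lamin processing and nuclear pores, of which 24 had a peak and 9 had one inside the gene, against 21.0% of all genes with one inside. Of its 6 further KASH and SUN domain genes, 2 had a peak in the window. These were Syne4, which encodes nesprin-4, with 1 peak of score 73.0 at 6.02 kb, and Kash5 with 3 peaks, while Lrmp, Sun3, Sun5 and Spag4 had none. These genes were grouped and named with their values known. Their median number of peaks was 1, as in all genes, and their median length was 27.9 kb, against 17.2 kb for all genes. Icmt, which encodes the methyltransferase that acts on prenylated lamins, had the highest score, 208, at 30.5 kb. Tmpo, the gene of the LEM domain protein LAP2, had 9 peaks, 5 of them inside, and a top score of 198 at 6.30 kb, a value held by 116 peaks of the list. Kash5, which links meiotic chromosomes to dynein, had a top score of 182 at 46.0 kb from the gene, and the nucleoporin gene Nup107 had one of 165 at 32.8 kb. Nemp1 had a top score of 157 inside the gene. Ankle2, Banf1 and Tmem43 had a top score of 153 each, inside the gene and at 42.6 and 37.1 kb from it, a value held by 325 peaks of the list. Lbr, the lamin B receptor gene, and Zmpste24, the gene of the protease that matures prelamin A, had peaks close to the gene, at 0.115 and 0.119 kb, with scores of 70.1 and 64.9. Both were named because of these values.

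The second list holds 15 genes of cytoskeletal partners, of which 12 had a peak and 8 had one inside. Among all genes of 50 to 200 kb, 69.8% had a peak in the window and 46.3% had one inside. Of those over 200 kb, 66.3% had one inside. The list's genes had a median length of 65.6 kb, and their median number of peaks was 2. The giant cytolinker gene Dst had 14 peaks, as many as Syne1, with a top score of 410, and its relative Macf1 had 9 with a top score of 257. Akap6, whose product binds nesprin-1 at the nuclear envelope of muscle, had 5 peaks inside and a top score of 225. The kinesin gene Kif5b, the dynein adaptor gene Bicd2 and Akap9 had top scores of 157, 151 and 138, each inside the gene, and the Akap9 score is held by 428 peaks of the list. Pcm1, Fhl1 and Mtm1 had no peak in their windows. Dst, Macf1 and Akap6 are all over 200 kb long, the class in which 72.4% of genes had a peak.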

How the data were processed

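GATA4 ChIP-seq of mouse myoblasts was analysed from 1 deposited peak list; the IgG library was not analysed here. Per the labels' protocols, cells were fixed in 1% formaldehyde, their chromatin fragments measured 200 to 500 bp, and 150 bp paired reads were sequenced. CASAVA 1.8, Bowtie and the build GRCm38 (mm10) are named in the submitters' processing notes. Peaks were called with MACS in Galaxy, per the file headers. For the MACS version, threshold, control and duplicate handling, the sources used here give nothing. The score of each peak was deposited by the authors and was used as it stands.

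Starts were converted to 1-based positions. Each peak was assigned by its centre to gene spans of a RefSeq table of GRCm38.p6, and counted with Python 3.11.15 and pandas 2.3.3 after a check on made-up peaks. All 9 members and all 45 list genes matched the table by symbol. Start sites and strand came from RefSeq promoter windows. Without a genome sequence, motifs were searched in those windows only, not in the peaks as first planned. All 9 members are named. Of the lists, up to 6 genes by highest score are named, with ties, and genes without a peak where they number 5 or fewer. Apart from that rule, the further KASH and SUN domain genes are named as a group, and Lbr and Zmpste24 because of their values. Members and lists were chosen with earlier results of these data known. No test was run, since there is 1 library per precipitation. Poisson intervals (scipy 1.17.1) cover counting error only. The alternatives were other windows, any overlap, scores above the median and, chosen after seeing the data, leaving out scores held by at least 100 peaks.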

Additional observations from a re-analysis of the deposited data

How the results depend on the processing

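The 35 peaks became 22 with the gene span alone and 19 among scores above the median, and stayed within 1.5 times at 10 kb (25), at 100 kb (44), with any overlap (35) and without widely shared scores (28). Genes with a peak numbered 6 of 9 with the gene span alone and 6 at 10 kb, where 21.0% and 33.3% of all genes had one. At 100 kb they numbered 8, Lmnb2 included, where 69.9% of all genes had one. Above the median they numbered 5, against 36.8% of all genes. Without widely shared scores they numbered 7, against 49.4%, and with any overlap they stayed at 7. Syne1 kept 11 inside peaks with any overlap and without widely shared scores and had 9 above the median. Syne2 had 2 instead of 4 inside peaks both above the median and without widely shared scores, an alternative chosen after seeing the data. Of the 45 genes of both lists, 36 had a peak in the report, 17 with the gene span alone, where 21.0% of all genes had one, and 22 above the median, where 36.8% of all genes had one. A GATA site was found in 1 of 13 promoter windows, and the core GATA in 4. Smaller windows hold fewer peaks by construction. The planned search of the middle 200 bp of the peaks was not run. Depth is unknown, so an absent peak at Lmnb2 or Emd may lie below the detection of this library.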

Other observations

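Across all genes, each of the searched motifs was less frequent in promoter windows that overlap a GATA4 peak than in all windows, the GATA sites among them. Of 2004 such windows, 23.8% held AGATAA or AGATAG or TGATAA or TGATAG on either strand, and of all 32851 windows 29.8% did. For the core GATA the shares were 51.4% and 57.9%, for the E-box 62.5% and 72.3%, for the AP-1 site 7.39% and 7.81%, and for the TEAD site 13.6% and 14.7%. The median GC content was 59.7% in the windows that overlap a peak and 52.7% in all windows. None of these differences was tested, and those for the AP-1 and TEAD sites were the smallest. The windows that overlap a peak are also part of all windows. The part of base composition in these differences was not tested either.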
